A study of Bos taurus with 14 samples.

Results

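UGP2 (ENSBTAG00000000111) and APRT (ENSBTAG00000000639) are 2 of the 27607 genes counted in the liver of newborn calves. UGP2 encodes UDP-glucose pyrophosphorylase, the enzyme that joins glucose 1-phosphate to UTP and so makes UDP-glucose. APRT encodes adenine phosphoribosyltransferase, the enzyme that returns free adenine to AMP. They were taken by their identifiers from genes that the study had called between the maternal diets, so the difference between the diets chose them. The fold changes, standard errors and calls given below for that difference describe these calves and are not a test of it.

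The samples were livers of 14 female calves of crossbred Angus-based heifers, 1 library per calf, collected 30 h after birth. The dams had been bred to a single bull with female-selected semen. Dams of the CON calves (n = 7) ate a basal diet. Dams of the VTM calves (n = 7) ate the same basal diet with 113 g of a vitamin and mineral premix per heifer and day, from 60 days before breeding to calving. All calves received the same colostrum and milk replacers. The study left out CON calf 19 and VTM calf 10 for low alignment, so 12 calves (n = 6 per group) entered its comparison. The values of all 14 are given here.

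UDP-glucose is the activated form of glucose from which the liver builds glycogen, and it is also the starting point for UDP-galactose and for the UDP-glucuronic acid used in conjugation. At birth the calf loses the placental glucose supply, and liver glycogen is one of its reserves until feeding and glucose synthesis are established. Purine salvage recovers free bases with phosphoribosyl pyrophosphate and spares the longer route of de novo synthesis. APRT is the salvage enzyme for adenine, much of which is released by polyamine synthesis.

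Levels are CPM, each gene's count as a share of its library on a fixed scale, after TMM normalization over all 14 calves, which adjusts library size with a trimmed mean of gene ratios. Total counts ranged from 13382264 in VTM calf 10 to 20125409 in VTM calf 28. UGP2 had 1283 to 8011 counts per calf and APRT 1552 to 4528. Counting error alone was therefore at most 2.79% of the value for UGP2 and 2.54% for APRT. These counts come from PCR-amplified reads without molecular identifiers, so this covers counting error alone. The libraries of CON calves 25 and 31 stood apart in ways that do not involve either gene. The 17 mitochondrial genes that could be paired with a name or class took 8.70% and 18.3% of their counts, against 1.93% to 4.84% in the other 12 calves. These 17 genes were among those that the study called between the diets with both calves in the CON group. The shares are therefore a description. The normalization factors of CON calves 25 and 31 were 0.86 and 0.70, and those of the others lay between 0.98 and 1.13. VTM calf 40 had 15395 genes with 0 counts and 318 with 1 to 9, against 10941 to 13397 and 1265 to 3349 in the others. Next in genes with 0 counts were CON calf 31 at 13397, CON calf 19 at 13079 and CON calf 25 at 12497. The remaining calves lay between 10941 and 11439. In bulk liver, fewer cells of a type and less RNA per cell cannot be told apart.

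In the CON group UGP2 was at 100.2 CPM in calf 25, 112 in calf 31, 159 in calf 7, 210 in calf 1, 220 in calf 37, 238 in calf 13 and 335 in calf 19. In the VTM group it was at 183 CPM in calf 16, 188 in calf 22, 242 in calf 34, 261 in calf 10, 277 in calf 4, 280 in calf 40 and 390 in calf 28. The lowest of the 14 were CON calves 25 and 31, and CON calf 7 was the third lowest. VTM calf 28 was the highest and CON calf 19 the next. The low end was thus held by CON calves alone, and the groups overlapped above it, from 183 to 335 CPM. Over the 12 calves of the study UGP2 was at 173 ± 58.1 CPM in CON and 260 ± 76.2 CPM in VTM (SD, n = 6 each).

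APRT was at 100.5 CPM in CON calf 19, 133 in calf 37, 159 in calf 1, 161 in calf 7, 196 in calf 13, 304 in calf 25 and 366 in calf 31. In the VTM group it was at 126 CPM in calf 28, 130 in calf 4, 137 in calf 10, 141 in calf 22, 143 in calf 16, 157 in calf 40 and 161 in calf 34. The 7 VTM calves lay within the CON range. The highest of the 14 were CON calves 31 and 25, and CON calf 19 was the lowest. Over the 12 calves APRT was at 220 ± 93.6 CPM in CON and 143 ± 14.1 CPM in VTM (SD, n = 6 each). The spread between CON calves was 42.6% of their mean, and 16.1% without calves 25 and 31, while that between VTM calves was 9.89%.

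**Figure D1:**
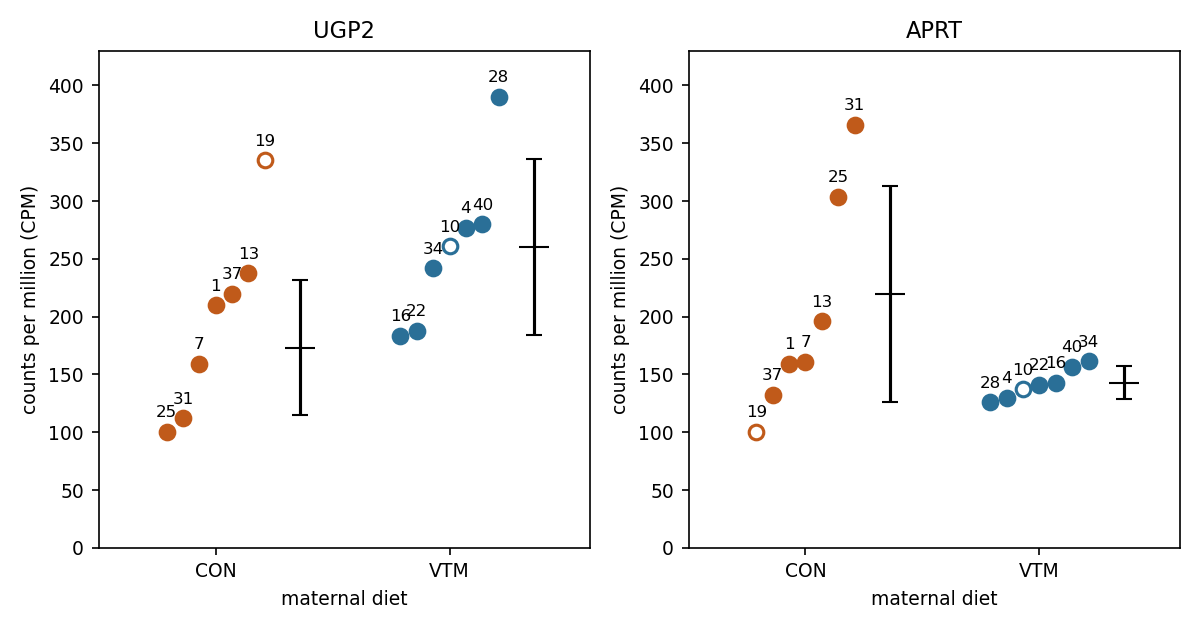
UGP2 (left) and APRT (right) in CPM for each calf, with the calf number above each point. Open points are CON calf 19 and VTM calf 10, which the study left out, and the bar beside each group is the mean ± SD of its other 6 calves. CON calves 25 and 31 are lowest for UGP2, at 100.2 and 112 CPM, and highest for APRT, at 304 and 366 CPM.

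With edgeR's quasi-likelihood test on the 12 calves, the log2 fold change of VTM over CON was 0.58 (standard error 0.24) for UGP2 and -0.63 (standard error 0.24) for APRT. The precursor enzyme of glycogen and the salvage enzyme of adenine thus lay on opposite sides of 0. The threshold, as set in the study, joins 2 conditions. The unadjusted p had to be 0.05 or less, and the log2 fold change 0.5 or more in either direction. Both genes were past it with edgeR, where 3.71% of 13307 genes were (0.864% higher and 2.85% lower in VTM), and with DESeq2, where 4.73% were (1.2% higher and 3.53% lower). These calls are the ones by which the genes were chosen, so nothing is read from them. Neither gene was past it when libraries were scaled to total counts alone, at 0.60 for UGP2 and -0.48 for APRT. Of all genes edgeR put 115 higher and 379 lower in VTM, and the median over all genes tested was -0.019 on the log2 scale. No gene had an adjusted p of at most 0.05 with either tool (lowest 0.791 with edgeR and 0.0844 with DESeq2, Benjamini-Hochberg), while 690 genes with edgeR and 880 with DESeq2 had an unadjusted p of at most 0.05.

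Most of the APRT difference, and less of that in UGP2, was carried by CON calves 25 and 31. Without both calves the log2 fold change of APRT was -0.17 (standard error 0.13), a loss of 72.5% of its size. That of UGP2 was 0.34 (standard error 0.21), a loss of 42.3%. Each sign was kept, and neither gene was past the threshold, as 1.93% of 13595 genes were (0.684% higher and 1.25% lower). The mean of the 4 CON calves that remained was 162 ± 26.1 CPM for APRT and 207 ± 33.5 CPM for UGP2 (SD, n = 4).

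Removing 1 of these calves at a time had a smaller effect. Without CON calf 25 the log2 fold change was 0.47 for UGP2 and -0.51 for APRT, and without CON calf 31 it was 0.48 and -0.42. When each calf was left out in turn, APRT stayed past the threshold in 11 of 12 fits, the exception being that without CON calf 31. UGP2 was past it in 7 of 12. It was not without CON calf 7 (0.56), 25 or 31, nor without VTM calf 28 (0.44) or 40 (0.56).

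The other end of the CON group was held by calf 19, which the study did not analyse. Over all 14 calves UGP2 was not past the threshold, at 0.41 (standard error 0.25) on the log2 scale. APRT, at -0.51 (standard error 0.24), was past it, as were 2.07% of 13311 genes (0.443% higher and 1.62% lower). With CON calves 25 and 31 taken out, the 14-calf values were 0.18 (standard error 0.20) and -0.064 (standard error 0.15). Between the calves left out by the study, which had no part in the choice of the genes, both differences ran against those of the 12 calves. UGP2 was lower in VTM calf 10 than in CON calf 19, by 0.36 on the log2 scale (261 against 335 CPM), and APRT was higher by 0.45 (137 against 100.5 CPM). With 1 calf per group no test can be made.

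**Figure D2:**
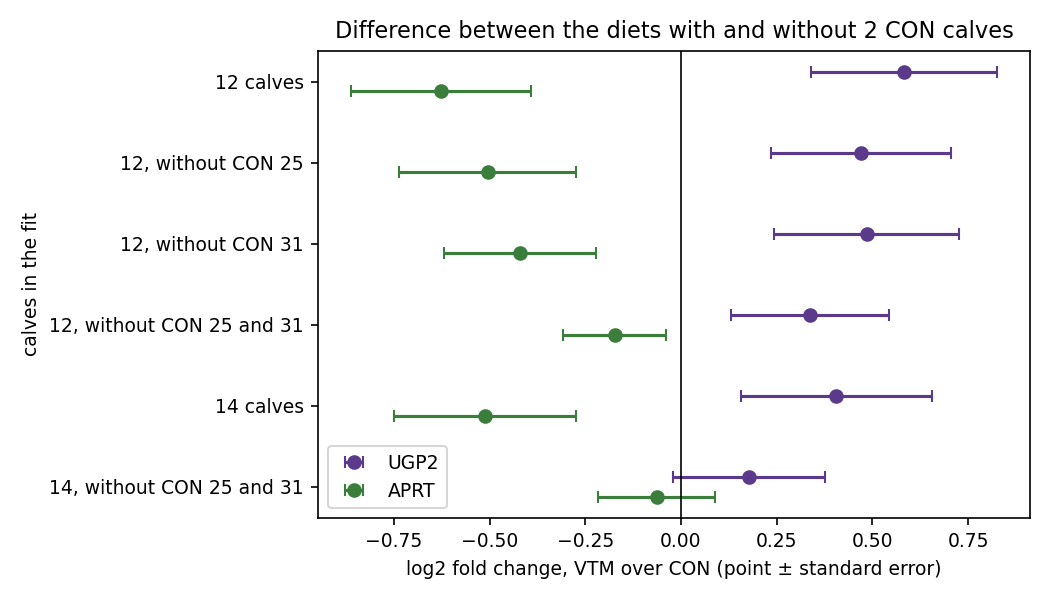
Log2 fold change of VTM over CON with its standard error from edgeR, for UGP2 and APRT, in fits with different calves. Both genes move toward 0 without CON calves 25 and 31, from -0.63 to -0.17 for APRT and from 0.58 to 0.34 for UGP2 over the 12 calves, and to -0.064 and 0.18 over the 14.

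The ratio of UGP2 to APRT counts within a library needs no scaling between libraries. Its log2 value was -1.71 in CON calf 31 and -1.60 in CON calf 25. The other CON calves were at -0.014 in calf 7, 0.28 in calf 13, 0.40 in calf 1, 0.73 in calf 37 and 1.74 in calf 19. VTM calves ranged from 0.36 in calf 16 to 1.63 in calf 28, with a median of 0.84. The CON group held both the 4 lowest ratios and the highest of the 14. The mean log2 ratio over the 12 calves was -0.32 ± 1.06 in CON and 0.82 ± 0.48 in VTM (SD, n = 6 each), a difference of 1.14. That difference was 0.47 without CON calves 25 and 31, and over all 14 calves without them it was 0.21.

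Across the 7 CON calves UGP2 tended to be lower where APRT was higher on the log2 CPM scale (Pearson r = -0.90, Spearman rho = -0.75). This did not hold for every pair of calves, since calf 13 was above calf 7 in both genes. The contrast that chose the genes rests in large part on CON calves 25 and 31, and so does this value, which is therefore a description and has no p here. Without them r was -0.63 over 5 calves, and over the 6 CON calves of the study it was -0.83.

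Across the 7 VTM calves the correlation did not pass 0.05 (r = -0.40, 2-sided exact permutation p = 0.385, adjusted over 6 correlations 0.461; rho = -0.46, exact permutation p = 0.302, adjusted 0.363). Without VTM calves 16 and 28, the farthest from the median of UGP2, r was -0.020 over 5 calves. Without VTM calf 28 alone it was 0.032, so that calf decided its sign. The difference between the groups in this correlation was not tested. With group means removed and CON calves 25 and 31 left out, r over the other 12 calves was -0.50 (permutation p = 0.119) and rho -0.41 (permutation p = 0.208). It was 0.070 without the 2 calves farthest from the median of UGP2.

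**Figure D3:**
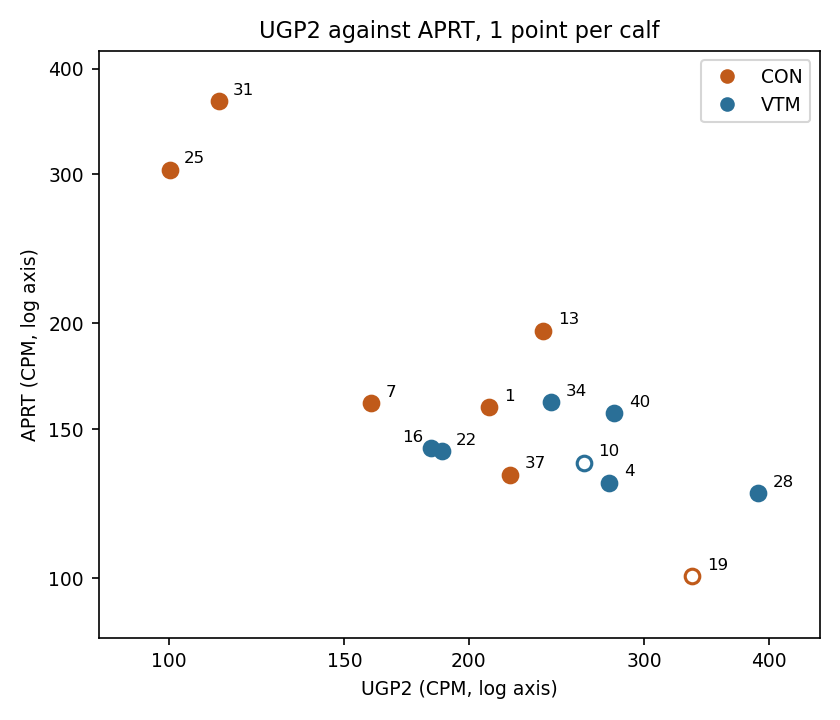
UGP2 against APRT in CPM on log axes, 1 point per calf with its number, and open points for the calves left out by the study. CON calves 25 and 31 are at the upper left, CON calf 19 and VTM calf 28 at the lower right, and the other 10 calves lie between 159 and 280 CPM for UGP2 and between 130 and 196 CPM for APRT.

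The share of counts on mitochondrial genes was highest in the same CON calves, 25 and 31. Across the 7 CON calves its correlation with UGP2 was r = -0.65 (rho = -0.54) and with APRT r = 0.72 (rho = 0.50), on log2 scales. These too are descriptions, for the same reason. Both signs turned without CON calves 25 and 31, to 0.57 for UGP2 and -0.63 for APRT over 5 calves, so the relation rests on those calves. CON calf 19, with the third highest share at 4.84%, had the lowest APRT and nearly the highest UGP2.

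In the VTM group, where the share ranged from 1.93% to 3.90%, r was -0.67 for UGP2 (exact permutation p = 0.0978, adjusted 0.175; rho = -0.75, exact permutation p = 0.0663, adjusted 0.199). Without VTM calves 4 and 16, at the ends of that range, r was -0.57 over 5 calves. For APRT in VTM, r was 0.15 (exact permutation p = 0.734, adjusted 0.734; rho = 0.21, exact permutation p = 0.662, adjusted 0.662) and -0.16 without the same 2 calves. When the mitochondrial genes were taken out of the table, the log2 fold changes over 12 calves were 0.59 for UGP2 and -0.62 for APRT, as large as with them.

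**Figure D4:**
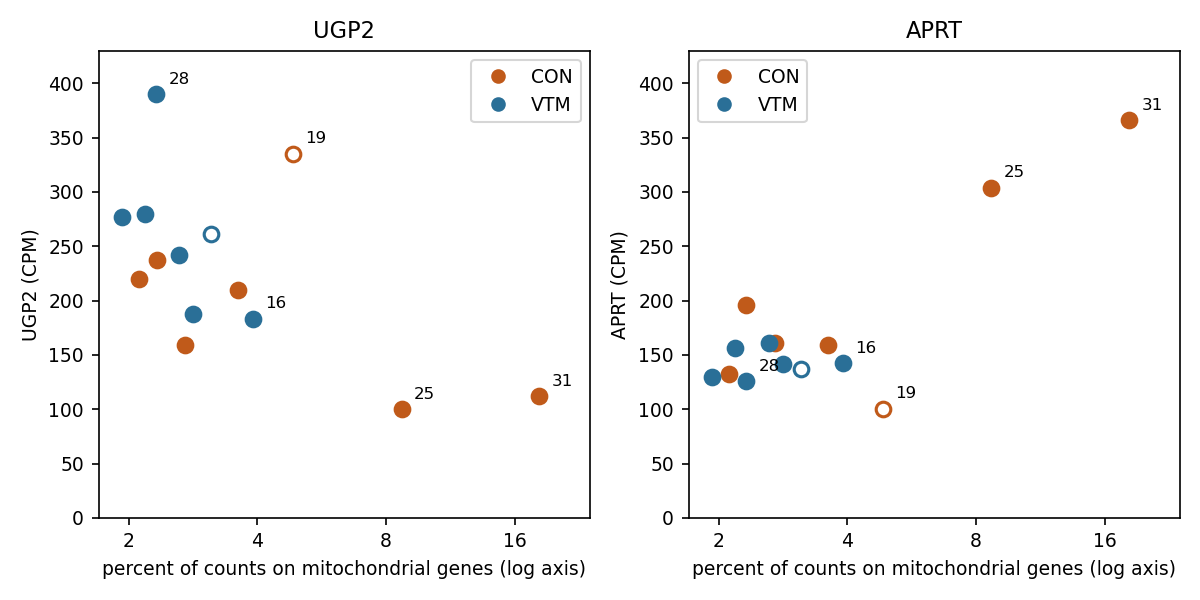
UGP2 (left) and APRT (right) in CPM against the percent of counts on 17 mitochondrial genes (log axis), 1 point per calf, with open points for the calves left out by the study. CON calves 25 and 31, at 8.70% and 18.3%, are the lowest in UGP2 and the highest in APRT. CON calf 19, at 4.84%, is the lowest in APRT and the next to highest in UGP2, after VTM calf 28.

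The pattern of these calves was common in the table. CON calves 25 and 31 were the 2 highest of the 14, as in APRT, in 14.9% of 13311 genes, and the 2 lowest, as in UGP2, in 15.9%. Among the 378 genes past the edgeR threshold over 12 calves and lower in VTM that were also kept over 14, they were the 2 highest in 55.3%. Among 115 genes past it and higher in VTM, they were the 2 lowest in 50.4%. Genes past that threshold were chosen with these calves in the CON group, so these shares are a description.

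Other enzymes of the same pathways were listed from textbook knowledge, 132 genes in 7 lists. The count table holds identifiers alone. The supplementary tables list 688 genes, most of them with a name and all picked in the study on these calves, so 4 of the 132 were followed. These were UGP2 of 20 in glycogen synthesis, NUDT14 of 26 in the use of UDP-sugars, APRT of 17 in purine salvage and NT5C of 19 in purine breakdown. The 16 genes of glycogen breakdown and glucose release, the 19 of uridine nucleotide supply and the 15 of purine de novo synthesis were not analysed here. Of the 4 genes, 1 was past the threshold and higher in VTM (UGP2) and 3 were past it and lower (APRT, NT5C and NUDT14), beside 0.864% and 2.85% of all genes. Being picked on these calves, they are not independent evidence of a direction.

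NT5C (ENSBTAG00000011527), a cytosolic nucleotidase that removes phosphate from nucleoside monophosphates, was at 37.7 CPM in CON calf 19, 60.5 in calf 37, 69.0 in calf 1, 76.9 in calf 13, 87.6 in calf 7, 135 in calf 25 and 220 in calf 31. In VTM it ranged from 55.1 CPM in calf 10 to 86.2 CPM in calf 34, with a median of 67.5. As in APRT, CON calves 31 and 25 were the highest of the 14 and CON calf 19 the lowest. The log2 fold change was -0.65 (standard error 0.28) over 12 calves and -0.080 without CON calves 25 and 31. It was past the threshold over 12 calves. It was not without CON calf 25 (-0.57) or 31 (-0.32), without VTM calf 4, 16, 28 or 40 (-0.65 to -0.60), or over all 14 calves (-0.55).

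NUDT14 (ENSBTAG00000048010), a hydrolase that cleaves UDP-glucose, was at low counts, 35 to 316 per calf. In CON it was at 2.27 CPM in calf 19, 6.11 in calf 37, 10.4 in calf 1, 11.3 in calf 13, 12.5 in calf 7, 18.2 in calf 25 and 25.5 in calf 31. In VTM it ranged from 4.37 CPM in calf 4 to 11.99 CPM in calf 22, with a median of 8.04. Its ends were held by the same CON calves as in APRT. The log2 fold change was -0.84 (standard error 0.34) over 12 calves, past the threshold, and -0.35 without CON calves 25 and 31, not past it. Nor was it past it without CON calf 25 (-0.74) or 31 (-0.58), without VTM calf 4 (-0.71) or 34 (-0.73), or over all 14 calves (-0.65).

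**Figure D5:**
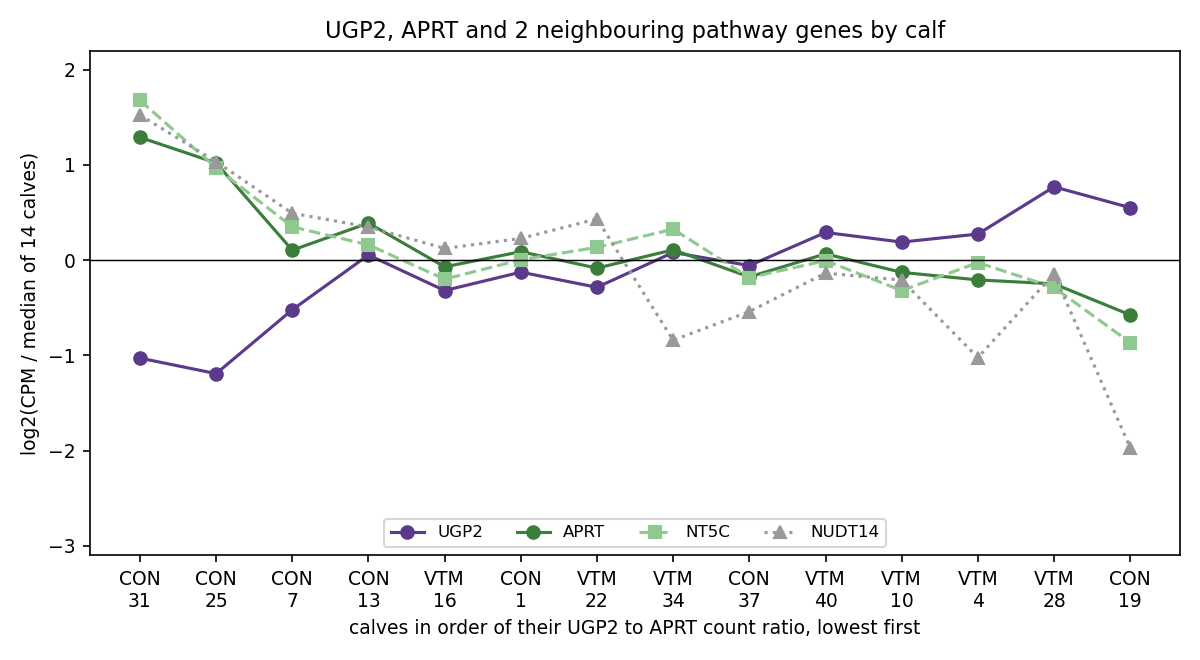
Log2 of the CPM over the median of the 14 calves for UGP2, APRT, NT5C and NUDT14, with the calves in order of their UGP2 to APRT count ratio, which by itself sets the trend of UGP2 and APRT. NT5C runs from 1.68 in CON calf 31 to -0.87 in CON calf 19, and NUDT14 from 1.52 to -1.97 between the same calves.

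By Pearson r of log2 CPM over all 14 calves, the genes most like APRT among 619 other genes with a name were PSMB10 (0.98), an immunoproteasome subunit, DPY30 (0.98), a subunit of histone methyltransferase complexes, CHMP2A (0.97), of the membrane-scission complex ESCRT-III, MRPL40 (0.96), of the mitochondrial ribosome, and ASPSCR1 (0.96), a tether of glucose transporter vesicles. The lowest r values were those of USP9X (-0.96), a deubiquitinase, FAT1 (-0.94), a large cadherin, KLF12 (-0.94), a transcription factor, RELN (-0.93), a secreted glycoprotein, and COBLL1 (-0.93), an actin-binding protein. The r of PSMB10 was 0.95 without CON calves 25 and 31, that of KLF12 -0.91 and that of RELN -0.59. KLF12 was at 3.88 CPM or less in every calf. Over all genes tested, named or not, the 5 highest with APRT ranked from 2 (PSMB10) to 9 (ASPSCR1). The 5 lowest ranked from 10 (USP9X) to 177 (COBLL1) from that end. The named genes were all picked in the study on these calves, and every r is taken over the same 14 libraries.

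The highest r values with UGP2 among 619 other genes with a name were those of COBLL1 (0.92) and ONECUT1 (0.92), a hepatocyte transcription factor. Next were those of NFASC (0.88), a cell adhesion protein, TOP1 (0.88), a DNA topoisomerase, and LGR4 (0.88), a receptor for R-spondins. The lowest were those of DUSP10 (-0.94), a phosphatase of stress-activated kinases, SH3D21 (-0.93), COX14 (-0.92), an assembly factor of cytochrome oxidase, LPAR6 (-0.91), a lysophosphatidic acid receptor, and CDK3 (-0.91), a cyclin-dependent kinase. COBLL1 stood in both sets, with opposite signs. Over all genes tested, named or not, the 5 highest with UGP2 ranked from 3 (COBLL1) to 54 (LGR4). The 5 lowest ranked from 1 (DUSP10) to 7 (CDK3) from that end. When CON calves 25 and 31 were left out, LGR4 was at 0.85, NFASC at 0.68 and DUSP10 at -0.85.

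Over all 13310 other genes tested, 204 had an r of at least 0.9 with APRT and 383 of at most -0.9. For UGP2 there were 17 and 10. Without CON calves 25 and 31 the numbers were 10 and 15 for APRT, and no gene reached either limit for UGP2, where the highest r was 0.89 and the lowest -0.86.

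The liver label could be checked on 1 of 10 hepatocyte markers, TTR (ENSBTAG00000010991), the transthyretin secreted by hepatocytes, which was at 109.2 to 2228 CPM and so was present in every calf. TTR too was highest in CON calf 31 and next in CON calf 25, at 1523 CPM, and lowest in CON calf 19. Its log2 fold change over 12 calves was -0.99 (standard error 0.52), not past the threshold with edgeR, and without CON calves 25 and 31 it was -0.0029. It was past the threshold with DESeq2 (-1.002), and with edgeR without CON calf 37 (-1.19) or VTM calf 16 (-1.30).

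Markers of other liver cells were paired in part and were again picked in the study on these calves. TIMD4, a Kupffer cell receptor and 1 of 12 macrophage markers, ranged from 2.46 to 29.2 CPM in CON and from 5.94 to 11.2 CPM in VTM. STAB1, a sinusoidal endothelial receptor and 1 of 10 endothelial markers, ranged from 77.7 to 251 CPM in CON and from 66.4 to 97.4 CPM in VTM. Both were highest in CON calves 25 and 31. The sum of 5 of 10 stellate cell and fibroblast markers was 1472 to 5066 CPM in CON and 1363 to 2713 CPM in VTM, with CON calves 25 and 31 at 2234 and 2080 CPM. The sum of 4 of 8 cholangiocyte markers was 49.3 to 108 CPM in CON and 32.0 to 87.5 CPM in VTM, and SOX9 among them had 0 counts in VTM calf 40. Past the edgeR threshold and lower in VTM were STAB1, 4 of the 5 stellate and 2 of the 4 cholangiocyte markers, and 1 stellate marker was past it and higher, beside 2.85% of all genes lower and 0.864% higher. Leaving out CON calves 25 and 31 moved the log2 fold change of STAB1 from -0.63 to -0.13. It moved those of the collagens COL1A1, from -1.12 to -1.34, COL1A2, from -0.99 to -1.28, and COL3A1, from -0.61 to -0.84, and that of the keratin KRT7, from -0.92 to -1.12, the other way. Of the 13 mitochondrial protein genes 12 were paired, and all 12 were past the threshold and lower, beside the same 2.85%. Without CON calves 25 and 31 their log2 fold changes lay between -0.13 (ATP8) and 0.12 (COX1). Their sum was 100329 and 259325 CPM in those calves, 38296 CPM in CON calf 19 and as low as 18711 CPM in CON, and 17956 to 39522 CPM in VTM, so the groups overlapped. None of 14 red cell or 12 other leukocyte markers was paired. The part of these cell types, and of the mitochondrial share, in the values of UGP2 and APRT was not tested.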

How the data were processed

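Polyadenylated liver RNA of 14 calves was sequenced from strand-specific libraries as paired-end reads. After trimming, reads were mapped with STAR 2.7.5 (genome build ARS-UCD1.2, Ensembl annotation). What the authors deposited is the counts of reads per gene that STAR gave, with no normalization and no gene filter. The strand column used is not given in the sources used here, nor are coordinates of that build. Every row of the table names a gene. Groups come from the sample labels, as does the number of each calf, and 1 calf is 1 replicate. Gene names, and the class of mitochondrial genes, were paired with identifiers through the supplementary tables. Of 89 markers 24 and of 132 pathway genes 4 were followed, so checks over whole lists are void.

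The quasi-likelihood test of edgeR 4.0.16 in R 4.3.3 was run on the 12 calves of the study, with filterByExpr, TMM, diet as the only term and Benjamini-Hochberg adjustment. DESeq2 1.42.0 was an alternative. Standard errors are the log2 fold change over the root of the F statistic. For levels on the log2 scale, TMM over 14 calves and a prior count of 2 were used. For VTM, correlations were tested over all pairings in Python 3.11.15 with scipy 1.17.1, and 100000 permutations inside groups for the 12-calf value. The edgeR code was tested on simulated data.

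The 2 genes, the lists and the tests were chosen with earlier results of these data known. Genes named are the 2 members, listed genes past the threshold and a set of reference enzymes whatever their values. To these come, among genes with a name, the 5 with the highest and the 5 with the lowest r with each member over 14 calves. The reference enzymes are not reported here. The markers TTR, TIMD4, STAB1, SOX9, COL1A1, COL1A2, COL3A1, KRT7, ATP8 and COX1 fall outside this rule and were named after their values were seen. Fits over all 14 calves without CON calves 25 and 31, r without these calves and the 12-calf correlation were chosen after seeing the data.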

Additional observations from a re-analysis of the deposited data

Results flagged for a closer look

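The percent of counts on mitochondrial genes in CON calf 31, 18.3%, was far above the rest of its group, since its gap to the next calf, CON calf 25 at 8.70%, exceeded Dixon's 95% critical value for 7 calves. It was the 1 value so marked in 16 groups of values examined, and chance marks about 1 group in 20. That rate does not hold for the mitochondrial share, which is summed over genes that the study called with CON calf 31 in the CON group. The mark is therefore a description. This calf was also the highest of the 14 in APRT and the next to lowest in UGP2. No single calf stood apart by this measure in UGP2, APRT or their ratio, where CON calves 25 and 31 lie close to each other.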

How the results depend on the processing

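Over the alternatives tried, UGP2 was higher and APRT lower in VTM in each fit, and for UGP2 every value lay within 1 SD between calves of the main one. For APRT the log2 fold change moved further than that without CON calves 25 and 31, to -0.17 over the 12 calves and to -0.064 over the 14. The difference in the log2 ratio of the 2 genes moved to 0.21 over all 14 calves without CON calves 25 and 31. With 1 calf left out, the values ranged from 0.44 to 0.70 for UGP2, from -0.74 to -0.42 for APRT and from 0.86 to 1.35 for the ratio.

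The number of genes past the threshold, 494, was 310 with scaling to total counts alone, 1003 without a gene filter, 275 over 14 calves, 263 without CON calves 25 and 31, 240 over 14 calves without them, and 286 (without CON calf 31) to 1039 (without CON calf 37) with 1 calf left out. It was 305 without CON calf 25 and 743 without CON calf 1. The cause of these changes was not tested. The 4 pathway genes followed were all past the threshold with edgeR over 12 calves. The number was 1 with scaling to total counts alone and over 14 calves, 0 without CON calves 25 and 31 over the 12 calves or the 14, and 0 to 4 with 1 calf left out (0 without CON calf 31, 1 without CON calf 25, and 2 without VTM calf 4, 28 or 40). NT5C turned to 0.028 and TTR to 0.17 over 14 calves without CON calves 25 and 31.

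The correlation of UGP2 with APRT in CON was -0.83 over the 6 calves of the study, and ranged from -0.95 to -0.83 with 1 calf left out. Without CON calves 25 and 31 it was -0.63 over 5 CON calves. Over the 12 other calves of both groups, with group means removed, it was -0.50. In VTM it ranged from -0.57 to 0.032, the latter without VTM calf 28. For the mitochondrial share, r with 1 calf left out ranged from -0.86 to -0.48 for UGP2 and from 0.44 to 0.93 for APRT in CON, with the values farthest from 0 found without CON calf 19. In VTM it ranged from -0.75 to -0.46 for UGP2 and from -0.13 (without VTM calf 4) to 0.40 for APRT. No paired analysis was possible because the calves of the 2 groups share no replicate numbers. Every calf had at least 1283 counts of UGP2 and 1552 of APRT, and an effect of depth on either gene was not tested.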
